A study of Mus musculus with 4 samples.

Results

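Prostaglandins and leukotrienes are signalling lipids made from arachidonic acid, and 10 genes of their synthesis were examined in mouse splenic monocytes. The genes were taken by name as the enzymes that make the lipids and their helper protein, but the list was chosen with earlier results of these data known. It holds the cyclooxygenases Ptgs1 and Ptgs2, the synthases Ptges, Ptges3, Hpgds and Tbxas1, and the leukotriene genes Alox5, Alox5ap, Lta4h and Ltc4s. Of the 18194 genes on the array that a probe set named alone, 8 belonged to this list. Ptges3 had only 2 probe sets that it shares with its pseudogene Ptges3-ps, and Ptgs1 was not analysed here because no annotated probe set named it.

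The study asked which genes miR-146a, a microRNA that restrains inflammatory signalling in myeloid cells, controls in the Ly6Clow and Ly6Chigh monocyte subsets. From spleens, cells positive for CD11b were collected on beads and then sorted by Ly6C, and the cells of several mice were pooled for each Affymetrix Mouse 430_2 array. There were 4 arrays, 1 for each of KO Ly6Clow, KO Ly6Chigh, WT Ly6Clow and WT Ly6Chigh. No group had a replicate, so the error of a difference between a pair of arrays cannot be estimated from that pair. KO mice had the genotype miR-146a-/- and the strain label B6(FVB)-Mir146tm1.1Bal/J. WT mice had the strain label C57BL/6 and were described as control littermates, and the labels give no age. The deletion is not limited to monocytes in the labels, no stimulus was named, and the protocol can be read as a different red cell lysis buffer for each genotype. On that reading the effects of buffer and genotype cannot be told apart.

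Both lipid families start when phospholipase A2 frees arachidonic acid from membranes. Cyclooxygenases turn it into prostaglandin H2, from which terminal synthases make prostaglandin E2, prostaglandin D2 or thromboxane A2. 5-Lipoxygenase, helped by its activating protein, makes leukotriene A4, which Lta4h converts to the neutrophil attractant leukotriene B4 and Ltc4s to the cysteinyl leukotriene C4. Blood monocytes and macrophages are known sources of thromboxane, prostaglandin E2 and leukotrienes, and Ptgs2 is a classical inducible gene of inflammation.

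The microRNA that the KO mice lack is shown first because it defines the genotype, with its seed (bases 2 to 8) in capitals. It lies at chr11:43374435-43374456 (- strand, GRCm38.p6, RefSeq).
mmu-miR-146a-5p: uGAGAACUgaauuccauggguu
The 250 bases before the RefSeq start of the 3 genes that differed most between the subsets follow, 5′ to 3′ on the gene's strand. Capitals mark GAGGAA, the core of the site of the myeloid factor PU.1, on either strand. The Ptgs2 window is chr1:150099781-150100030 (+ strand), the Tbxas1 window chr6:38918736-38918985 (+ strand) and the Alox5 window chr6:116461179-116461428 (- strand), all in GRCm38.p6.
Ptgs2: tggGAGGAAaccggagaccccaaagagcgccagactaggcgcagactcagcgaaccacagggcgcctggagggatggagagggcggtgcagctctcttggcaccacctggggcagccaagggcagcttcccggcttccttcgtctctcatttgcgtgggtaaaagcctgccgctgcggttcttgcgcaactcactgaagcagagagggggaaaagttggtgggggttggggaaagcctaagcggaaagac
Tbxas1: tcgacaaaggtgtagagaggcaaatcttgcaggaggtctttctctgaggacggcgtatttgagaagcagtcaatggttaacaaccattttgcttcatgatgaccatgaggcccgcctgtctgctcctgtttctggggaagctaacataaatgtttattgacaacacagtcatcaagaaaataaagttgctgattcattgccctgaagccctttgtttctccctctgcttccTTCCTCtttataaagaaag
Alox5: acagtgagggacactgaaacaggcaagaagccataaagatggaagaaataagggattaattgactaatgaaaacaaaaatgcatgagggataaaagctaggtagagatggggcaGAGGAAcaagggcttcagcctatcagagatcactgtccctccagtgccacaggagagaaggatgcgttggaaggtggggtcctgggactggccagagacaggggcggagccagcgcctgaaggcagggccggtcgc
GAGGAA was found in the windows of 7 of the 9 listed genes with an entry, against 23.3% of 32851 promoter windows, whether or not the gene was detected on the arrays. The Sp1 letters GGGCGG were in 4 of the 9 (32.7% of all windows), and the C/EBP letters TTNNGNAA in 3 (36.8%). TATAAA was in 1 of the 9, Tbxas1, where 2 overlapping matches lie on opposite strands (12.4% of all windows), and the AP-1 letters TGANTCA were also in that window alone (6.75%). CACGTG and TGACGTCA were in none of the 9 (6.02% and 1.55%). Both strands were searched, and these letters were kept from a wider set searched in the same windows, so the matches are a description.

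**Figure D1:**
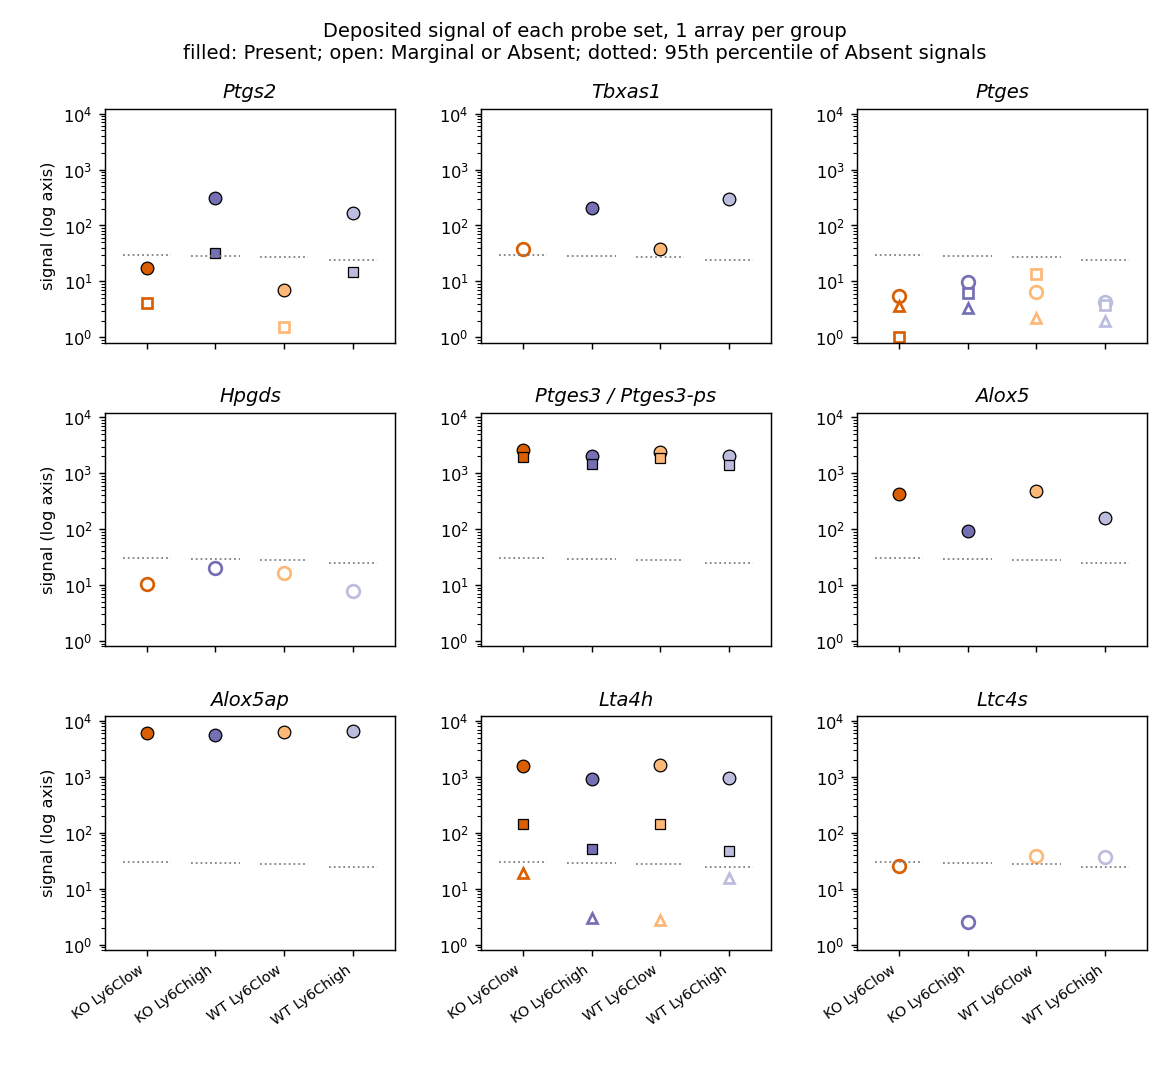
Deposited signal (log axis) of each probe set of 9 of the listed genes on the 4 arrays; different symbols are different probe sets, filled points were called Present, open points Marginal or Absent, and dotted lines give each array's 95th percentile of Absent signals. Ptgs2 and Tbxas1 lie higher on both Ly6Chigh arrays, Alox5 on both Ly6Clow arrays, and every point of Ptges, Hpgds and Ltc4s is open.

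The sorted fractions carried the markers of their labels. All 6 monocyte markers were Present on every array, all 5 Ly6Chigh markers were lower on the Ly6Clow array in both genotypes, and all 7 Ly6Clow markers were higher there. Signals had been scaled to one level, and 46.8% to 48.6% of probe sets were Present on each array. The 95th percentile of Absent signals lay between 24.6 and 29.9, which is used below as a background level. Summed signals of marker lists for other cell types differed between the fractions, and which cells gave these signals was not tested. On the KO Ly6Clow, KO Ly6Chigh, WT Ly6Clow and WT Ly6Chigh arrays in turn, 5 B cell genes summed to 984.7, 215.5, 1197.4 and 333.0 (Ms4a1 and Cd22 led the difference, Pax5 was Absent on all), and 8 neutrophil genes to 683.9, 2471.2, 1236.0 and 3717.0 (Cxcr2, Ltf, Camp and Ngp were Absent on all). In the same order, 9 platelet genes summed to 933.5, 489.9, 601.6 and 411.9 (Gp5 and Treml1 were Absent on all), 8 red pulp macrophage genes to 501.2, 309.0, 429.2 and 367.3 (Vcam1 was Absent on all), and 5 conventional dendritic cell genes to 107.6, 454.9, 90.1 and 407.6 (Xcr1 and Itgae were Absent on all). All 9 mast cell and basophil genes and all 5 eosinophil genes were Absent on all 4 arrays.

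**Figure D2:**
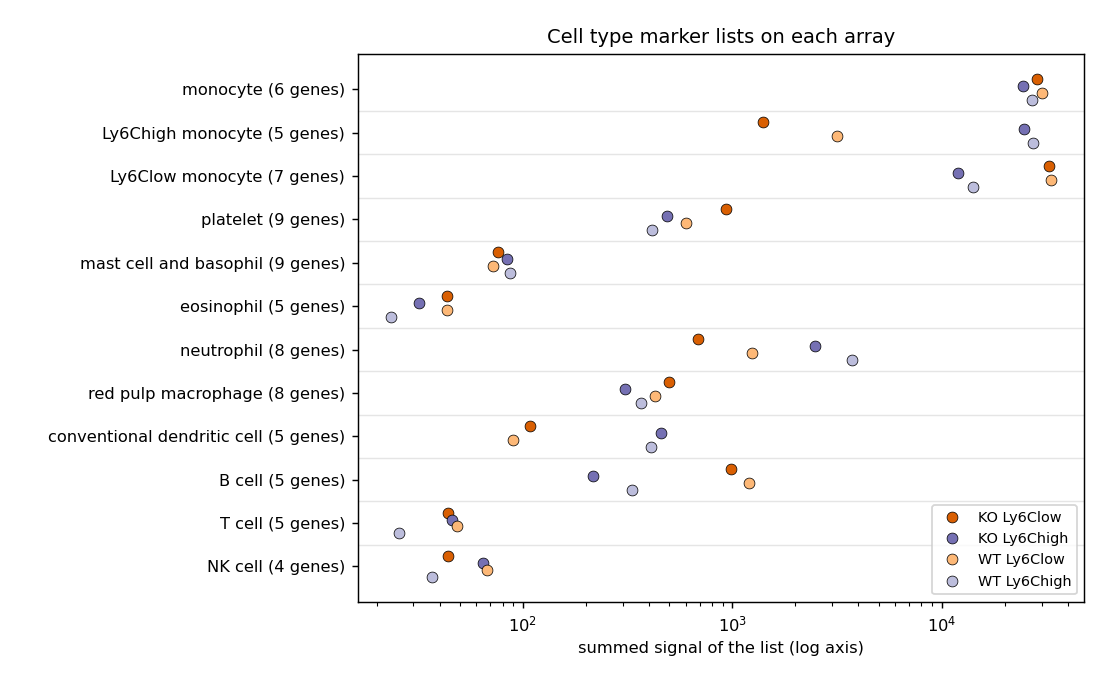
Summed signal (log axis) of each cell type marker list on the 4 arrays, 1 point per array. The monocyte list lies between 24458 and 30048 on every array, the neutrophil and dendritic cell lists lie higher on both Ly6Chigh arrays, and the B cell list on both Ly6Clow arrays.

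Of the synthesis genes, 3 differed between the monocyte subsets by the rule used here, and not all in one direction. Ptgs2 and Tbxas1, the inducible cyclooxygenase and thromboxane synthase, were lower in Ly6Clow monocytes, and Alox5, the 5-lipoxygenase, was higher. A gene was called by rule when its log2 ratio of signals was at least 1 in size (2-fold) and its brighter array called it Present with a signal of at least 100. In KO, 3 of the 5 listed genes that were measured (Present on at least 1 of the pair of arrays) passed, against 8.78% of all measured genes. The 1 higher gene stands against 3.69% of all measured genes called higher, and the 2 lower genes against 5.09% called lower. In WT the same 3 genes passed, against 8.65% of all measured genes (3.65% higher and 4.99% lower). Each gene kept its direction in both genotypes, but the pairs of arrays were sorted from different pools of mice and no other replicate exists.

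Ptgs2 catalyses the first committed step of prostaglandin synthesis after induction. Its signal was 17.5 on the KO Ly6Clow array and 316.4 on the KO Ly6Chigh array, and 6.9 on the WT Ly6Clow array and 169.5 on the WT Ly6Chigh array. Both Ly6Clow signals were called Present yet lie under the background level, and both Ly6Chigh signals lie far above it. The log2 ratio of Ly6Clow over Ly6Chigh was -4.18 in KO and -4.62 in WT. With the Ly6Clow signals raised to the background level, Ptgs2 was still 10.6-fold lower in KO and 6.10-fold lower in WT, and this floor reverses which genotype has the larger difference. A second Ptgs2 probe set was Present on both Ly6Chigh arrays (32.2 in KO and 14.5 in WT) and Absent on both Ly6Clow arrays (4.1 in KO and 1.5 in WT). Against the background level its fold was only 1.08 in KO. In WT no fold can be read for it, because its Ly6Chigh signal is also under that level. The authors' deposited table gave decreases of 21.1-fold in KO and 17.1-fold in WT for the first probe set, an order of the genotypes opposite to that of the plain signal ratios. In pooled bulk RNA, fewer expressing cells and less RNA per cell cannot be told apart. The neutrophil and dendritic cell lists summed higher on both Ly6Chigh arrays, and the part of such cells in the Ptgs2 ratios was not tested.

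Tbxas1 makes thromboxane A2, which activates platelets and constricts vessels. Its signal was 37.8 on the KO Ly6Clow array, where the call was Marginal, and 202.2 on the KO Ly6Chigh array. In WT it was 38.7 on the Ly6Clow array and 292.7 on the Ly6Chigh array. The plain signal ratios put Tbxas1 lower in Ly6Clow by 5.35-fold in KO and by 7.56-fold in WT. The authors' deposited table gave smaller decreases, of 4.29-fold in KO and 6.50-fold in WT. Its log2 ratios of -2.42 in KO and -2.92 in WT ranked 220 of 10410 and 129 of 10535 measured genes from the lowest. Platelets also carry Tbxas1, and the platelet list summed higher on the Ly6Clow array of each genotype. The neutrophil and dendritic cell sums were also lower on the Ly6Clow arrays. Most of the neutrophil difference came from Mmp8 (18.6 in KO Ly6Clow and 1393.8 in KO Ly6Chigh, 21.6 in WT Ly6Clow and 1422.3 in WT Ly6Chigh) and S100a8, while S100a9 read 217.3 and 227.2 in KO and 415.2 and 410.3 in WT in the same order. The part of platelets, neutrophils and dendritic cells in these ratios was not tested.

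Alox5 starts leukotriene synthesis. Its single probe set was Present on all arrays and read 430.1 on KO Ly6Clow and 92.5 on KO Ly6Chigh, and 481.0 on WT Ly6Clow and 157.1 on WT Ly6Chigh. Both Ly6Clow arrays exceeded both Ly6Chigh arrays. The difference was 4.65-fold in KO (log2 2.22) and 3.06-fold in WT (log2 1.61), ranks of 166 and 333 from the highest. The authors' deposited table gave increases of 6.06-fold in KO and 3.25-fold in WT. B cells also express Alox5, and their list was higher on the Ly6Clow arrays too, and its part in the Alox5 ratio was not tested.

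Lta4h, the hydrolase that yields leukotriene B4, differed in the same direction as Alox5 without reaching the 2-fold rule. Its brightest probe set read 1561.8 on KO Ly6Clow and 914.4 on KO Ly6Chigh, and 1650.1 on WT Ly6Clow and 963.6 on WT Ly6Chigh, which is 1.71-fold in either genotype. A dimmer probe set read 145.0 on KO Ly6Clow and 52.3 on KO Ly6Chigh, and 145.7 on WT Ly6Clow and 46.3 on WT Ly6Chigh. On that probe set, also Present throughout, the difference was 2.77-fold in KO and 3.15-fold in WT, so the size for Lta4h depended on the probe set read. The remaining probe set was Absent on all arrays, with signals between 2.8 and 19.0.

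Alox5ap encodes the membrane protein (FLAP) that presents arachidonic acid to 5-lipoxygenase. It read 5989.4 on KO Ly6Clow and 5582.8 on KO Ly6Chigh, and 6413.5 on WT Ly6Clow and 6562.3 on WT Ly6Chigh. The log2 ratios of 0.10 in KO and -0.03 in WT were small, and the averaged sign changed with the scaling of the arrays (0.03 as deposited, -0.01 after median centring and -0.13 after quantile normalization). The activating protein therefore did not show the 2-fold subset difference of its enzyme on these arrays.

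The remaining synthases gave little or shared signal. Ptges, the inducible prostaglandin E synthase, was Absent on all 4 arrays on each of its 3 probe sets (signals from 1.0 to 13.7). Hpgds, which makes prostaglandin D2 in mast cells and some macrophages, read 10.5, 20.0, 16.3 and 7.9 and was Absent on KO Ly6Clow, KO Ly6Chigh, WT Ly6Clow and WT Ly6Chigh. Ltc4s, the leukotriene C4 synthase, was likewise Absent on all, at 25.8, 2.5, 39.0 and 36.8 in that order. The authors' deposited table nevertheless called it 9.85-fold lower in KO than in WT Ly6Chigh monocytes, a fold that rests on signals called Absent. The 2 probe sets shared by Ptges3 (cytosolic prostaglandin E synthase, also a co-chaperone of Hsp90) and Ptges3-ps read 2634.8 and 1944.5 on KO Ly6Clow and 2044.5 and 1485.6 on KO Ly6Chigh. In WT they read 2414.4 and 1890.4 on Ly6Clow and 2069.2 and 1422.0 on Ly6Chigh. All 4 Ly6Clow over Ly6Chigh ratios of these probe sets lay between 1.17-fold and 1.33-fold, and gene and pseudogene cannot be told apart.

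**Figure D3:**
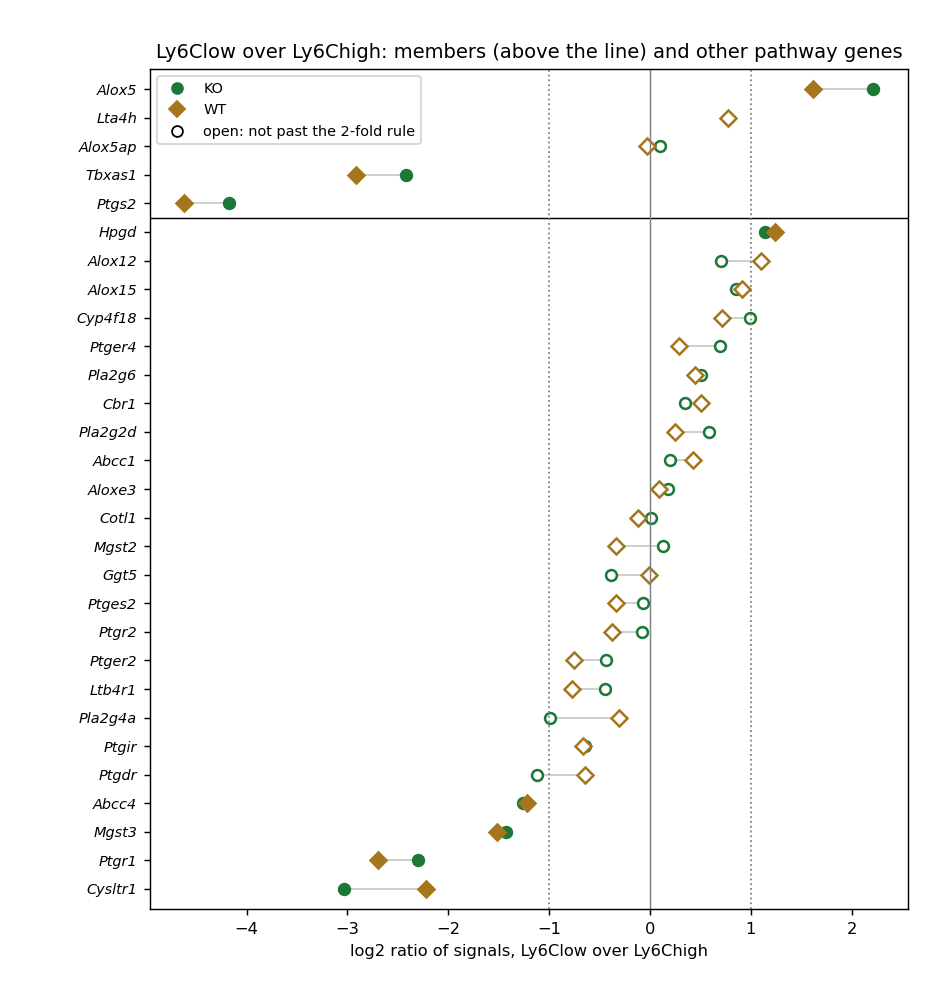
Log2 ratio of signals, Ly6Clow over Ly6Chigh, in KO (circles) and WT (diamonds) for the 5 measured synthesis genes above the line and 24 other pathway genes below it; filled points passed the 2-fold rule, dotted lines mark log2 ratios of -1 and 1, and the KO point of Lta4h is hidden by its WT point. Alox5 and Hpgd lie to the right and Ptgs2, Tbxas1, Cysltr1, Ptgr1, Mgst3 and Abcc4 to the left in both genotypes.

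The wider pathway also held genes that differed between the subsets in either direction. Of 44 further genes for arachidonate release, synthesis, transport, clearance and reception, 40 had a probe set of their own; 24 were measured in the KO pair and 23 in the WT pair. In each genotype the same 5 genes passed the rule, 1 higher and 4 lower in Ly6Clow. Over all measured genes 8.78% passed in KO (3.69% higher and 5.09% lower) and 8.65% in WT (3.65% higher and 4.99% lower). Hpgd, the dehydrogenase that starts prostaglandin inactivation, was higher in Ly6Clow at 5644.1 against 2567.2 in KO Ly6Chigh, and at 5508.0 against 2329.1 in WT Ly6Chigh. Its fold was 2.20 in KO and 2.37 in WT. Ptgr1, a reductase that inactivates leukotriene B4 and prostaglandin metabolites, was lower in Ly6Clow, at 101.3 against 499.2 in KO Ly6Chigh and 96.5 against 623.5 in WT Ly6Chigh. Thus one clearance enzyme followed the direction of Alox5 and the other that of Ptgs2.

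Cysltr1, a receptor for cysteinyl leukotrienes, was lower in Ly6Clow, at 68.2 against 556.8 in KO Ly6Chigh (log2 -3.03) and 94.3 against 438.4 in WT Ly6Chigh (log2 -2.22). Abcc4, an exporter of prostaglandins, read 241.6 in KO Ly6Clow against 578.0 in KO Ly6Chigh, and 262.0 in WT Ly6Clow against 610.2 in WT Ly6Chigh. Mgst3, a microsomal glutathione transferase that in human can conjugate leukotriene A4, read 102.8 in KO Ly6Clow against 277.4 in KO Ly6Chigh, and 113.1 in WT Ly6Clow against 323.8 in WT Ly6Chigh. All 3 were lower on the Ly6Clow array of both genotypes. Among the measured pathway genes that did not pass in either genotype were Pla2g4a, the cytosolic phospholipase A2, and the receptors Ltb4r1, Ptger2, Ptger4 and Ptgir. Over the measured pathway genes the median log2 ratio was -0.03 in KO and -0.31 in WT, against -0.01 and 0.01 over all measured genes. For the 5 measured synthesis genes it was 0.10 in KO and -0.03 in WT, a median over genes that differed in opposite directions.

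**Figure D4:**
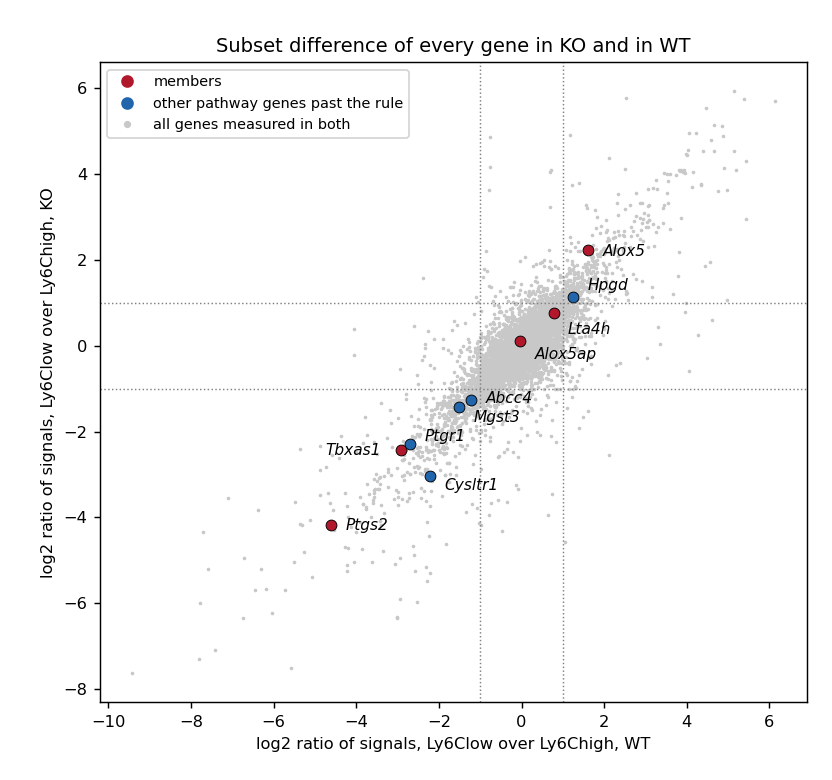
Log2 ratio of Ly6Clow over Ly6Chigh in KO (vertical axis) against WT (horizontal axis) for 9846 genes measured in both; grey points are all genes, red points the 5 measured synthesis genes and blue points the 5 other pathway genes past the rule, with dotted lines at -1 and 1. Ptgs2 lies far to the lower left and Alox5 in the upper right, among 415 genes lower and 288 higher by the rule in both genotypes.

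An additive model of genotype and subset over the 4 arrays (limma) gave the only p-values the design allows, with 1 residual degree of freedom. That residual is the difference of the subset effect between the genotypes, and limma combines it with the spread over all genes. The SEs and p-values of this model therefore do not measure the spread between mice or pools. For subset, 786 of 11099 genes (7.08%) had a Benjamini-Hochberg adjusted p under 0.05, among them 3 of the 5 synthesis genes and 5 of the 24 pathway genes. Over all genes 2.94% were called higher and 4.14% lower, beside 1 higher and 2 lower synthesis genes. Ptgs2 fell by 4.40 on the log2 scale in Ly6Clow (SE 0.174, limma adjusted p = 0.0308), and Tbxas1 fell by 2.67 (SE 0.187, limma adjusted p = 0.0352). Alox5 rose by 1.92 (SE 0.212, limma adjusted p = 0.0489), and Lta4h differed by 0.77 (SE 0.116, limma adjusted p = 0.0645) without passing. The 5 pathway genes past the 2-fold rule also passed, Ptgr1 with an adjusted p of 0.0346 and Cysltr1 with 0.0454 in limma. These calls depended on the setting. After quantile normalization 2 of the 5 synthesis genes and 3 of the 24 pathway genes passed in limma, and Alox5 (adjusted p = 0.0581), Cysltr1 (adjusted p = 0.0536) and Hpgd (adjusted p = 0.0528) did not. With all probe sets of a gene averaged, with undetected genes kept in, or with 1 probe set a row, limma called 0 genes, while 3083 to 7548 had an unadjusted p under 0.05. Over the alternatives the adjusted p ran from 2.14e-64 to 0.249 for Ptgs2 and from 5.10e-38 to 0.252 for Alox5, the lowest from a fit that pools the spread over genes.

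No synthesis gene passed the 2-fold rule between the genotypes. This was 0 of 5 in Ly6Clow monocytes, where 0.196% of all measured genes passed, and 0 of 5 in Ly6Chigh monocytes, where 0.269% passed. Ptgs2 was the one measured gene of the list with a higher signal in KO. In Ly6Clow it read 17.5 in KO against 6.9 in WT (log2 1.34), both under the background level, so the size of this difference cannot be read. In Ly6Chigh it read 316.4 in KO against 169.5 in WT, a 1.87-fold difference (log2 0.90), rank 285 from the highest of 10402 measured genes. The second Ptgs2 probe set read 32.2 in KO against 14.5 in WT Ly6Chigh, and since the WT signal is under the background level the fold there is 1.31 against that level. The authors' deposited table gave this probe set a no-change call. For the brighter probe set the authors' deposited table had an increase call of 2.0-fold in Ly6Chigh and a no-change call in Ly6Clow. The additive model gave Ptgs2 a log2 difference of 1.12 (SE 0.174) with a limma adjusted p of 0.742, and it called 0 of 11099 genes (0%) for genotype, with 700 at an unadjusted p under 0.05.

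Immediate early and stress genes, a class to which Ptgs2 belongs by its regulation, were read beside it. In Ly6Clow 10 of the 12 listed genes were above 0 in KO over WT (median log2 0.49, against -0.03 over all measured genes). Of the 12, only Hspa1a passed the rule there, where 0.196% of all measured genes did. In Ly6Chigh 7 of the 12 were above 0 (median 0.51, against -0.01 over all measured genes). Only Hspa1a and Hspa1b of the 12 passed there, where 0.269% of all measured genes did. Egr1 (log2 -0.55 in Ly6Clow and -0.47 in Ly6Chigh) and Dusp1 (-0.09 and -0.07) were below 0 in both subsets. Between subsets the list was mixed, with 5 of the 12 above 0 in KO and 4 of the 12 in WT. By the rule 3 were lower in KO Ly6Clow (Fosb, Ier3 and Atf3), and in WT Ly6Clow these and Junb were lower and Hspa1b higher, beside the shares of 8.78% and 8.65% over all genes. Their part in the Ptgs2 ratios was not tested, and the strain labels of the genotypes differ as well.

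The other measured genes of the list were at or below WT in KO. Alox5 read 92.5 in KO against 157.1 in WT Ly6Chigh (1.70-fold lower, log2 -0.76) and 430.1 in KO against 481.0 in WT Ly6Clow (log2 -0.16). The authors' deposited table called it 2.0-fold lower in KO Ly6Chigh and 1.23-fold lower in KO Ly6Clow. That table also called Tbxas1 (1.23-fold) and Alox5ap (1.15-fold) lower in KO Ly6Chigh, with no-change calls for both in Ly6Clow. For Lta4h it had no-change calls in both subsets. Over all 45101 probe sets it called 1492 lower and 2386 higher in KO Ly6Chigh, and 715 lower and 1040 higher in KO Ly6Clow. All 3 measured B cell genes were also lower in KO than in WT Ly6Chigh (median log2 -0.48, sums of 215.5 and 333.0), and S100a8 of the neutrophil list passed as lower (log2 -1.19). Their part in the Alox5 difference was not tested. Tbxas1 had log2 ratios of -0.03 in Ly6Clow and -0.53 in Ly6Chigh, Alox5ap of -0.10 and -0.23, and Lta4h of -0.08 in either subset. For Alox5 the additive genotype difference was -0.46 (SE 0.212, limma adjusted p = 0.742), for Tbxas1 -0.28 (adjusted p = 0.751), for Alox5ap -0.17 (adjusted p = 0.767) and for Lta4h -0.08 (adjusted p = 0.853). None passed, and with 1 array a group this does not show that the levels were alike. Median centring moved the median of all genes in Ly6Chigh to -0.18 and the calls to 10 higher and 26 lower, where the deposited scaling gave -0.01 with 17 higher and 11 lower. Under it Ptgs2 was at 0.74 and Alox5 at -0.93. Centring shifts every gene of a pair of arrays by the same amount. The places of Ptgs2 and Alox5 relative to that median were therefore fixed, and they are no check.

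**Figure D5:**
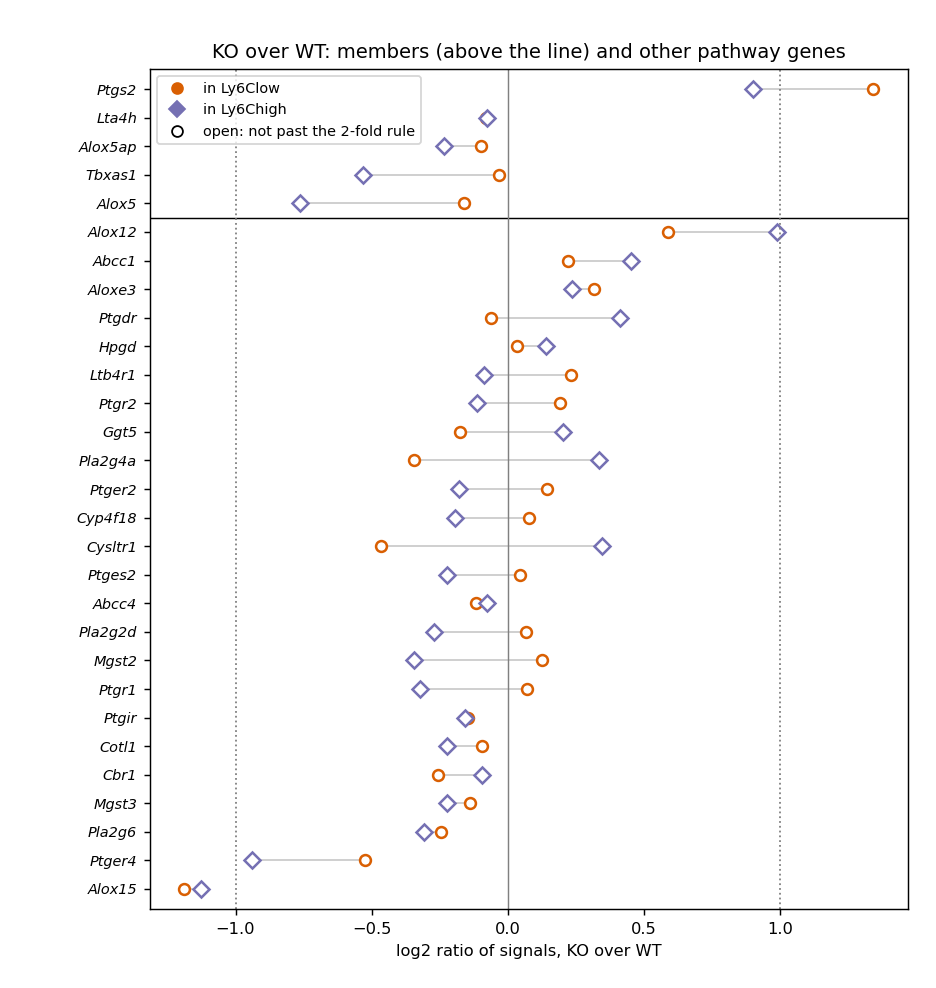
Log2 ratio of signals, KO over WT, in Ly6Clow (circles) and Ly6Chigh (diamonds) for the 5 measured synthesis genes above the line and 24 other pathway genes below it; all points are open because none passed the 2-fold rule, and dotted lines mark -1 and 1. Ptgs2 lies at 1.34 and 0.90, and Alox15 at -1.19 and -1.13 with signals under the minimum of 100.

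In the wider pathway 0 of 23 measured genes passed between genotypes in Ly6Clow and 0 of 22 in Ly6Chigh, where 0.196% and 0.269% of all measured genes did. Ptger4 and Alox15 are named here after their values were seen. Ptger4, the EP4 receptor for prostaglandin E2, read 1149.3 in KO against 1655.2 in WT Ly6Clow, and 709.3 in KO against 1359.8 in WT Ly6Chigh (log2 -0.53 and -0.94). Alox15, the 12/15-lipoxygenase, read 36.2 in KO against 82.5 in WT Ly6Clow. In Ly6Chigh Alox15 read 20.0 in KO (Absent and under the background level) against 43.7 in WT, 1.52-fold lower against that level. Both were lower in KO in both subsets, and neither passed in limma (adjusted p = 0.742 for each). With an offset of 32 and with an intensity trend in the prior, limma did call both for genotype.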

How the data were processed

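Splenic monocyte RNA was measured on 4 arrays. The deposited signal intensity values are linear; per the file headers BioRetis converted them from the raw array files, with the algorithm not given in the sources used here. Expression Console 1.2.1 is named in the design text and GCOS in the submitters' processing notes. The deposited detection p-value and call of each probe set came from the Affymetrix console software, per the file headers. The authors' deposited fold changes of array pairs are signed values, handled as a score of their software, and are printed as theirs with their change calls. Arrays had been scaled: the mean signal, trimmed by 2% at either end, was 150.0 on all.

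Of 45101 probe sets, 34958 named 1 gene. A gene was represented by its probe set of highest mean signal, and 11099 genes were Present on at least 1 array. Log2 ratios had no offset. limma 3.58.1 in R 4.3.3 fitted genotype and subset; its method was tested on simulated data. Every listed synthesis gene is named, and pathway genes past the rule; exceptions are said to be so. The members and lists were chosen with earlier results of these data known. Promoter and microRNA sequences are from RefSeq (GRCm38.p6). The genotype was not checked at its target, the microRNA gene, which was not analysed here. The number of arrays limits the precision.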

Additional observations from a re-analysis of the deposited data

Results flagged for a closer look

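A few genes had log2 ratios of opposite sign in the groups compared, some of them small in size. With 1 array a group none of these differences was tested. The Ly6Clow over Ly6Chigh log2 ratio of Alox5ap was 0.10 in KO and -0.03 in WT, a difference of 0.13. The KO over WT log2 ratio of Ptgr1 was 0.07 in Ly6Clow and -0.32 in Ly6Chigh, a difference of 0.39. That of Cysltr1 was -0.47 in Ly6Clow and 0.34 in Ly6Chigh, a difference of -0.81.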

How the results depend on the processing

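Of 70 recomputed counts, 53 stayed within 1.5 times the value reported and 17 did not, and none of the results recomputed here reversed a call. Between genotypes in Ly6Chigh, the synthesis genes past the rule were 1 with all probe sets of a gene averaged (Ptgs2) and 2 at 1.5-fold (Ptgs2 and Alox5), and the other pathway genes were 1 after median centring (Ptger4), 1 without the signal minimum (Alox15) and 1 at 1.5-fold (Ptger4). In Ly6Clow, 1 synthesis gene (Ptgs2) and 1 pathway gene (Alox15) passed without the signal minimum. Between subsets, the pathway genes were 3 in KO with probe sets averaged and 9 in each genotype at 1.5-fold. limma called 4317 genes for subset and 106 for genotype with an offset of 32, and 4590 and 287 with an intensity trend in the prior, which both pool the spread more. It called 0 for subset with probe sets averaged, without the detection filter and with 1 probe set a row, the last chosen after seeing the data, as was the background floor. Ptgs2 passed for genotype with the offset (log2 0.57, adjusted p = 0.0427) and with the trend (adjusted p = 0.00115), and in no other alternative (up to 0.791); Ptger4 and Alox15 were called under the same pair of settings. Averaging probe sets took Ptgs2 out of the WT subset calls, and turned Lta4h to -0.02 in the WT subsets and to 0.89 in KO over WT in Ly6Clow, where an Absent probe set enters the mean. No paired analysis was possible because each group has 1 array and no replicate numbers to match; the additive model, in which genotype is a term, takes the place of a block. Signals near the background level, those of Ptgs2 in Ly6Clow included, limit the size of any ratio.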

Other observations

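Genes outside the synthesis steps also had signals worth giving as values. Cyp4f18, a cytochrome that in mouse oxidises leukotriene B4, read 2379.2 in KO Ly6Clow and 1198.5 in KO Ly6Chigh, and 2254.6 in WT Ly6Clow and 1370.6 in WT Ly6Chigh, log2 ratios of 0.99 and 0.72 that lie under the rule. The receptor of leukotriene B4, Ltb4r1, read 369.3 in KO Ly6Clow and 504.1 in KO Ly6Chigh, and 314.3 in WT Ly6Clow and 536.3 in WT Ly6Chigh. The prostacyclin receptor Ptgir read 477.6 in KO Ly6Clow and 748.7 in KO Ly6Chigh, and 528.0 in WT Ly6Clow and 834.1 in WT Ly6Chigh. Both receptors were lower on the Ly6Clow array in each genotype without passing the rule. Pla2g4a, which frees the arachidonic acid, read 307.5 in KO Ly6Clow and 610.7 in KO Ly6Chigh, and 390.7 in WT Ly6Clow and 484.4 in WT Ly6Chigh. Cotl1, a binding partner of 5-lipoxygenase, had log2 subset ratios of 0.01 in KO and -0.12 in WT. These genes were chosen after their values were seen.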
